A study of Mus musculus with 12 samples.

Results

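The 8 genes described here are ones T cell biologists use to place a T cell between lymph node, blood and tissue, and between the naive and the memory state,: Ccr7, S1pr1, S1pr5, Klf2, Il7r, Cd44, Cd69 and Ly6c2. They were followed through an allogeneic transplant. The genes were taken by symbol out of 35855 genes, and the estimated counts and TPM (the length-corrected relative abundance of a transcript within its library) of all transcripts of a gene were summed. All 8 were found in the 12 libraries. The study asked what the transcription factor TCF-1, encoded by Tcf7, does in mature alloactivated CD8 T cells, and compared WT with TCF-1 cKO donor cells before and after transplant, with 3 libraries in each of 4 groups.

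TCF-1 cKO mice (TCF-7 cKO in the sample labels) carry a floxed TCF-1 gene and a Cre recombinase driven by CD4 (TCF-1 flox/flox x CD4cre), so deletion begins at the double-positive stage of the thymus and is not limited to CD8 T cells. The labels give C57BL/6 for every library. The methods list WT donors of C57BL/6J and of a congenic line, and which of them gave these libraries is not given in the sources used here. Pre-transplant libraries came from CD8 T cells sorted from the donor spleen. For post-transplant libraries, donor T cells were given to lethally irradiated BALB/c mice, which also received WT bone marrow, and donor CD8 T cells carrying the C57BL/6 marker H2Kb were sorted from the recipient spleen at day 7. WT and TCF-1 cKO cells at a stage therefore shared organ, kind of sort and, after transplant, irradiated host and time. The paper does not state whether they were sorted on the same day. It does state that its WT data were also shown in other papers of the laboratory. The labels do not say whether post-transplant replicates came from separate recipients, so p-values measure the spread between these libraries, which may be technical in part.

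Several facts of the libraries touch the results. Summed gene counts ran from 4499032 to 32551712 per library, and the 3 TCF-1 cKO pre-transplant libraries were the shallowest, at 4499032 to 9535215. The defining CD8 markers Cd8a and Cd8b1 were present throughout, at a summed 526 to 558 CPM (counts scaled to the library total) in WT pre-transplant, 287 to 303 in TCF-1 cKO pre-transplant, 1295 to 1495 in WT post-transplant and 1003 to 1530 in TCF-1 cKO post-transplant libraries. The pre-transplant libraries also held 13763 to 25056 CPM of 10 B cell transcripts, against 335 to 524 CPM post-transplant, and 334 to 649 CPM of 5 NK cell transcripts against 11.8 to 35.5 CPM, so they went against a pure CD8 T cell label. Of the 9 myeloid transcripts, pre-transplant libraries held 1655 to 3763 CPM and post-transplant libraries 128 to 513 CPM. Plasma cell transcripts (314 to 10890 against 48.3 to 122 CPM), dendritic cell transcripts (375 to 723 against 67.7 to 359 CPM) and erythroid transcripts (4459 to 26445 against 205 to 1193 CPM) were likewise higher before transplant. None of the B cell transcripts was at 0 in any library. Tcf7 itself was at 115 to 205 CPM in WT and 56.8 to 97.1 CPM in TCF-1 cKO libraries before transplant. Post-transplant it was at 17.2, 12.1 and 6.89 CPM in WT and at 8.999, 9.48 and 9.31 CPM in TCF-1 cKO libraries, so the library labelled WT post-transplant replicate 3 lay below every TCF-1 cKO library. These Tcf7 counts cover the whole gene, and which exons were deleted is not given in the sources used here. TCF-1 cKO post-transplant replicate 2 is titled as CD8 T cells, although another of its labels names CD4 T cells. In the 3 TCF-1 cKO post-transplant libraries the 4 CD4 T cell transcripts summed to 3.82 to 8.98 CPM. Calls that change without one of these libraries are given with and without it.

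Naive T cells enter lymph nodes through the chemokine receptor CCR7 and leave them by following sphingosine-1-phosphate through its receptor S1PR1. KLF2 is a zinc finger transcription factor that drives S1pr1 transcription, and the surface protein CD69 binds S1PR1 and takes it off the membrane, so that activated cells are held in the node. The IL-7 receptor alpha chain, encoded by Il7r, carries the survival signal of naive and memory cells, while CD44 and Ly6C rise on antigen-experienced CD8 T cells. S1PR5 is another receptor of the sphingosine-1-phosphate family, best known in NK cells and in circulating effector T cells.

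Promoter sequences of 5 of the 8 genes were matched by symbol in RefSeq (GRCm38.p6): S1pr5, Klf2, Il7r, Cd44 and Ly6c2. The 250 bases before the RefSeq start of transcription are printed for S1pr5 and Ly6c2, a member that fell and a member that rose after transplant in both genotypes, and for Klf2, whose post-transplant genotype difference changed sign under a correction for GC content and length. They lie at chr9:21248444-21248693 (minus strand), chr15:75111972-75112221 (minus strand) and chr8:72318812-72319061 (plus strand), and capitals mark the KLF box CACCC or its reverse complement GGGTG.
S1pr5: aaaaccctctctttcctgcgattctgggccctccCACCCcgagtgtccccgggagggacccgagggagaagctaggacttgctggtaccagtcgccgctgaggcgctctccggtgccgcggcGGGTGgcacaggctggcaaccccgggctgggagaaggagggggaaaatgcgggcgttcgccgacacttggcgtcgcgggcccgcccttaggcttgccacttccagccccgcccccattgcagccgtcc
Ly6c2: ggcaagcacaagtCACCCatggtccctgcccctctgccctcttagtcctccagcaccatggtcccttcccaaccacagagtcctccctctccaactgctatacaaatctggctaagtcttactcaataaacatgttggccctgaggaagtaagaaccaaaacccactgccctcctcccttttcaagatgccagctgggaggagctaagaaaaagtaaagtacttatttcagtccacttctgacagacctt
Klf2: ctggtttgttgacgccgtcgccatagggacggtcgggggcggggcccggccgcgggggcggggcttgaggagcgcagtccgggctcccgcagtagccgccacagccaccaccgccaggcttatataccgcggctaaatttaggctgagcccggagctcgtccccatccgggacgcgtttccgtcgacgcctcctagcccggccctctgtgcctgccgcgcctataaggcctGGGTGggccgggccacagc
The S1pr5 window held 2 KLF boxes, and the Klf2 window and this Ly6c2 window held 1 each, while 52.1% of all 32536 promoter windows of this length held at least 1 on either strand. A second Ly6c2 start site listed in RefSeq had a window without one. The Klf2 window ends at 72319061, past the Klf2 start of 72319033 in the annotation used for gene coordinates. Its marked box, at -19 to -15 from the RefSeq start, lies inside the gene by that annotation. The TCF/LEF core CTTTGA, present on either strand in 13.9% of all windows, was in none of the windows of the 5 genes. The FOXO site GTAAACA, present in 3.17% of all windows, was absent from them as well. So was the T-box site TCACACC, present in 3.33%. The S1pr5 and Klf2 windows were rich in G and C, at 69.2% and 71.2%, against a median of 52.4% over all windows and 50.0% for Ly6c2.

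More of the 8 genes differed between stages than between genotypes, and so did a larger share of all genes tested. In WT cells, 4 of the 8 genes passed the test between post-transplant and pre-transplant libraries, with Ccr7, S1pr5 and S1pr1 lower and Ly6c2 higher, where 20% of 16790 genes tested were called (10.3% lower and 9.7% higher). In the TCF-1 cKO comparison 5 of 8 passed, the same 3 genes lower and Ly6c2 and Cd69 higher, where 36.5% of 18535 genes were called (16.8% lower and 19.7% higher). Between the genotypes, 0 of 8 passed before transplant and 2 of the 7 tested passed post-transplant, Klf2 and S1pr1, each lower in TCF-1 cKO cells, where 0.0373% of 18757 genes and 17.9% of 16026 genes were called. Of all genes, 0.0213% were called lower before transplant and 0.016% were called higher in the TCF-1 cKO libraries, and 15.4% and 2.51% post-transplant. Before transplant, 0 members had an unadjusted edgeR p under 0.05, with Ccr7 nearest at 0.0518, and DESeq2 called 0. These calls are from the edgeR quasi-likelihood test with Benjamini-Hochberg adjustment over all genes tested, at an adjusted p under 0.1, the false discovery rate the study also used. The median log2 fold change of the tested members was -0.51 before transplant and -1.05 post-transplant between genotypes, against 0.05 and 0.15 over all genes tested, and -0.71 in WT and 0.28 in TCF-1 cKO cells between stages, against -0.30 and -0.29 over all genes tested.

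**Figure D1:**
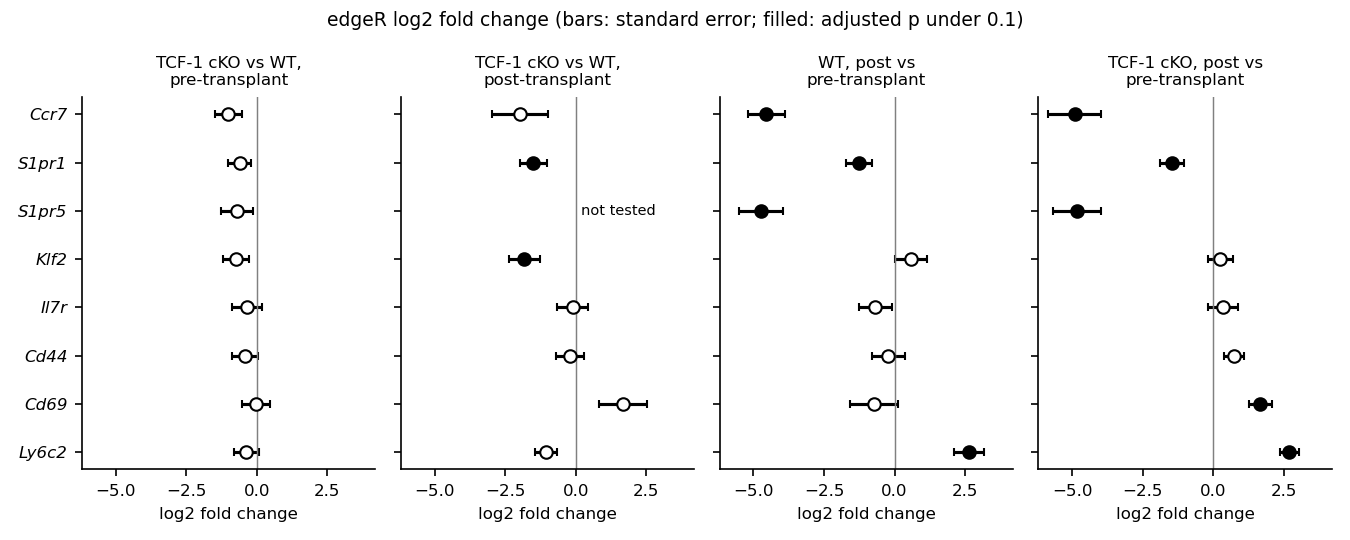
edgeR log2 fold change of the 8 genes on the x axis in each of 4 comparisons, with bars for the standard error and filled points for an adjusted p under 0.1. Ccr7 and S1pr5 lie between -4.54 and -4.91 in both stage comparisons, and Ly6c2 lies at 2.64 and 2.69, while the genotype comparisons hold the 2 filled points of Klf2 and S1pr1.

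Ccr7 (ENSMUSG00000037944, chromosome 11, 99144196 to 99155077, minus strand) is the receptor for lymph node entry. Its levels were 272, 375 and 313 TPM in the 3 WT pre-transplant libraries and 130, 126 and 276 TPM in the TCF-1 cKO pre-transplant libraries. They were 3.49, 9.91 and 3.41 TPM in WT post-transplant libraries and 0.560, 4.23 and 0.446 TPM in TCF-1 cKO post-transplant libraries. Every post-transplant library was thus below every pre-transplant library, whereas the genotypes overlapped at each stage. Ccr7 fell 23.3-fold in WT cells (log2 fold change -4.54, SE 0.66, edgeR adjusted p = 0.00268) and 30.1-fold in TCF-1 cKO cells (-4.91, SE 0.94, adjusted p = 0.00431). It was called in all 17 alternative fits of each stage comparison, at log2 values from -5.64 to -3.95 in WT and from -6.56 to -3.95 in TCF-1 cKO cells. Between genotypes the difference was -1.01 before transplant (SE 0.47, edgeR adjusted p = 0.285) and -1.99 post-transplant (SE 0.99, adjusted p = 0.228), neither past the threshold. Without TCF-1 cKO pre-transplant replicate 3, the library at 276 TPM, the difference before transplant was -1.77 with an edgeR adjusted p of 0.0168.

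S1pr1 (ENSMUSG00000045092, chromosome 3, 115710433 to 115715072, minus strand), the receptor for exit from the node, was at 168, 160 and 217 TPM in WT and at 140, 110 and 163 TPM in TCF-1 cKO libraries before transplant. Post-transplant it was at 44.5, 26.2 and 28.4 TPM in WT and at 13.5, 18.2 and 8.87 TPM in TCF-1 cKO libraries. The 4 groups fell in that order, and the 2 post-transplant groups did not overlap, although the 2 pre-transplant groups did. Between stages S1pr1 fell 2.41-fold in WT cells (log2 fold change -1.27, SE 0.46, edgeR adjusted p = 0.0997) and 2.78-fold in TCF-1 cKO cells (-1.48, SE 0.42, adjusted p = 0.0272). The WT call lay at the threshold: it held in 4 of 17 alternatives and in none of the 6 that left out 1 library, and an offset for GC content and length brought the log2 difference to -0.22 (edgeR adjusted p = 0.788). The TCF-1 cKO call held in 15 of 17 and was lost without TCF-1 cKO post-transplant replicate 3 (log2 fold change -1.22, edgeR adjusted p = 0.127) and with the replicate number as a block beside the offset. Between genotypes post-transplant, S1pr1 was 2.83-fold lower in TCF-1 cKO cells (-1.50, SE 0.47, edgeR adjusted p = 0.0817).

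S1pr5 (ENSMUSG00000045087, chromosome 9, 21242912 to 21248443, minus strand) was at 6.60, 14.8 and 16.1 TPM in WT and at 9.30, 5.22 and 11.7 TPM in TCF-1 cKO libraries before transplant. Post-transplant it came close to the limit of detection, with 23, 8 and 14 estimated counts in WT libraries (0.266, 0.109 and 0.246 TPM) and 7, 1 and 9 in TCF-1 cKO libraries (0.116, 0.0185 and 0.110 TPM). A count of 3 corresponds to 0.0922 to 0.667 CPM in these libraries. The groups before and after transplant lay far apart in both genotypes: the log2 fold change was -4.73 in WT (SE 0.78, edgeR adjusted p = 0.00429) and -4.83 in TCF-1 cKO cells (SE 0.84, adjusted p = 0.00261), and all 17 alternatives called it in each. The filter on low counts removed S1pr5 from the post-transplant comparison of genotypes, so 7 members were tested there. Fitted without that filter, its log2 difference was -1.62 with an SE of 1.34 and an edgeR adjusted p of 0.528. Before transplant it was -0.70 (SE 0.58, edgeR adjusted p = 0.503). The 5 NK cell transcripts, whose summed level is given above, were lower post-transplant too, and their part in the fall of S1pr5 was not tested. The NK cell receptor Ncr1 was at 13.2 to 81.6 CPM before and at 1.26 to 9.76 CPM post-transplant.

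Klf2 (ENSMUSG00000055148, chromosome 8, 72319033 to 72321656, plus strand), which drives S1pr1, was at 34.8, 29.4 and 26.6 TPM in WT and at 14.3, 25.1 and 23.4 TPM in TCF-1 cKO libraries before transplant. Post-transplant the WT libraries were at 22.0, 25.0 and 10.003 TPM, with the lowest value in the library labelled WT post-transplant replicate 3, and the TCF-1 cKO libraries were at 8.02, 5.45 and 6.20 TPM. The genotypes did not overlap at either stage. Klf2 was 3.53-fold lower in TCF-1 cKO cells post-transplant (log2 fold change -1.82, SE 0.56, edgeR adjusted p = 0.0750) and did not pass before transplant (-0.73, SE 0.46, adjusted p = 0.391). The Klf2 transcript is the most GC-rich of the 8, at 61.6%, and across the 16026 genes of the post-transplant comparison the log2 fold change fell with GC content (Spearman rho -0.559, a description across genes). With an offset for each library's trend on GC content and length, the Klf2 difference turned to 0.50 (edgeR adjusted p = 0.42), while that of S1pr1, at 48.8% GC, became -1.94 (adjusted p = 0.0903). Between stages Klf2 differed by 0.58 in WT (SE 0.56, edgeR adjusted p = 0.539) and by 0.24 in TCF-1 cKO cells (SE 0.44, adjusted p = 0.717). In TCF-1 cKO cells it was called lower under library totals (-1.32, edgeR adjusted p = 0.0267) and higher under the GC and length offset (0.89, adjusted p = 0.0932).

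The 2 calls of the post-transplant genotype comparison changed when libraries were left out. Leaving out any 1 library lost the calls of Klf2 and S1pr1, except that without the library labelled WT post-transplant replicate 3 both held (Klf2 -2.23, S1pr1 -1.73) and Ly6c2 (-1.30) and Cd69 (2.49) passed too, at edgeR adjusted p of 0.00917, 0.0291, 0.0278 and 0.0799. The log2 differences over these 6 fits ran from -2.23 to -1.45 for Klf2 and from -1.82 to -1.28 for S1pr1, so the direction was kept. Without TCF-1 cKO post-transplant replicate 2, the library with a CD4 label, 0 members were called. That fit called 1 gene in all.

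**Figure D2:**
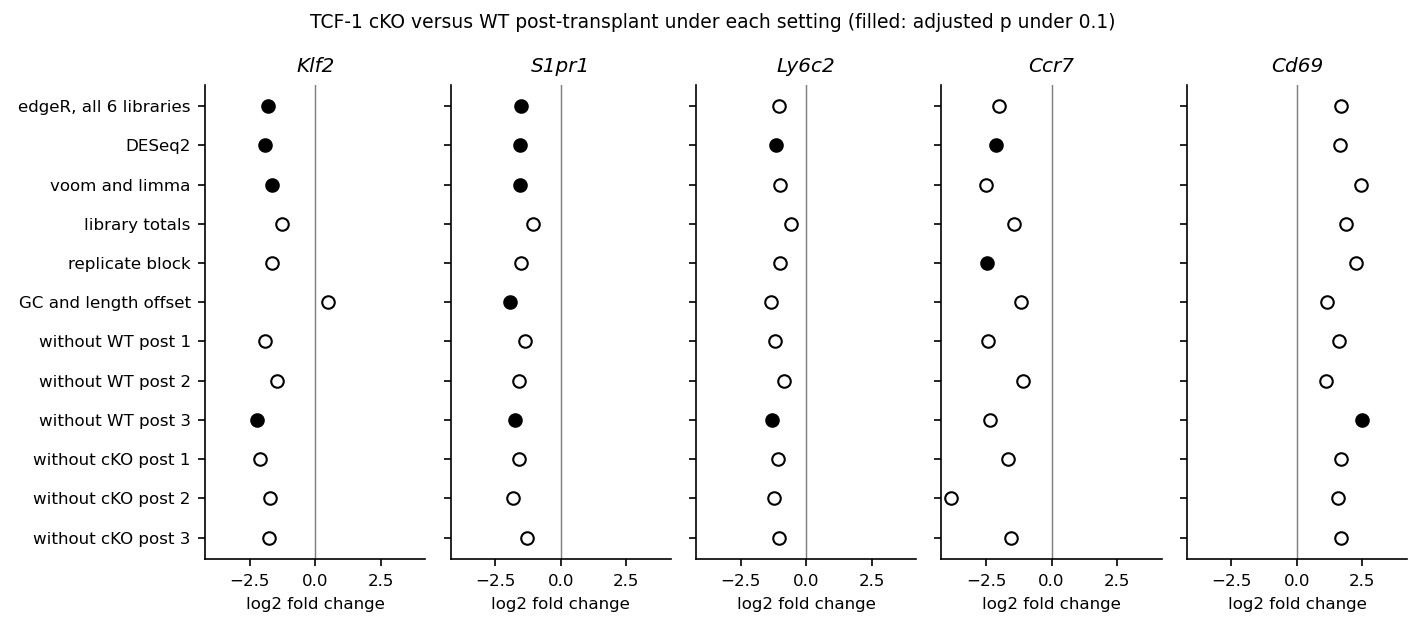
edgeR, DESeq2 or voom log2 fold change of TCF-1 cKO versus WT post-transplant on the x axis for 5 genes, with 1 row for each of 12 settings and filled points for an adjusted p under 0.1. Klf2 lies between -2.23 and -1.26 except under the GC and length offset, where it is at 0.50, and Cd69 is filled only without WT post-transplant replicate 3.

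Cd69 (ENSMUSG00000030156, chromosome 6, 129267325 to 129275436, minus strand), the antagonist of S1PR1, varied most among the WT post-transplant libraries. It was at 25.0, 19.2 and 46.8 TPM in WT and at 49.1, 38.4 and 17.8 TPM in TCF-1 cKO libraries before transplant. Post-transplant the WT libraries were at 9.73, 1.15 and 19.9 TPM, a range of 1.15 to 19.9, and the TCF-1 cKO libraries were at 30.4, 39.8 and 33.4 TPM. All 3 TCF-1 cKO libraries lay above all 3 WT libraries post-transplant, yet the log2 difference of 1.68 had an SE of 0.85 and did not pass (edgeR adjusted p = 0.236). In TCF-1 cKO cells Cd69 rose 3.17-fold between stages on the TMM scale (log2 fold change 1.67, SE 0.39, edgeR adjusted p = 0.0115), whereas scaled by library totals the difference was 0.02 (adjusted p = 0.976) and the mean TPM was 35.1 before and 34.6 after transplant. In WT cells the difference was -0.73 (SE 0.87, edgeR adjusted p = 0.63). The change of the genotype difference between stages was 2.12 (SE 1.03, edgeR adjusted p = 0.330), and passed only without the library labelled WT post-transplant replicate 3 (3.26, adjusted p = 0.0724). Transcript ENSMUST00000205032, annotated as a retained intron, took 20.1 to 51.4% of the Cd69 counts in WT pre-transplant, 30.6 to 38.6% in TCF-1 cKO pre-transplant, 5.31 to 16.3% in WT post-transplant and 18.03 to 24.6% in TCF-1 cKO post-transplant libraries. The protein-coding transcript ENSMUST00000032259 took 48.1 to 83.0% over all libraries.

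Il7r (ENSMUSG00000003882, chromosome 15, 9505788 to 9530176, minus strand) was at 28.1, 20.04 and 38.3 TPM in WT and at 45.8, 28.9 and 13.0 TPM in TCF-1 cKO libraries before transplant, and at 8.21, 3.11 and 11.3 TPM in WT and 12.4, 6.08 and 5.11 TPM in TCF-1 cKO libraries post-transplant. On the TPM scale every post-transplant library lay below every pre-transplant library, and the genotypes overlapped at both stages. In the edgeR fits no comparison passed: -0.35 and -0.11 between genotypes before and after transplant, and -0.68 in WT and 0.32 in TCF-1 cKO cells between stages, at adjusted p of 0.717, 0.917, 0.488 and 0.682. Scaled by library totals, Il7r was called lower post-transplant in TCF-1 cKO cells (-1.38, edgeR adjusted p = 0.0494).

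Cd44 (ENSMUSG00000005087, chromosome 2, 102811141 to 102901665, minus strand), the marker of antigen experience, was at 36.1, 16.8 and 31.4 TPM in WT and at 22.9, 22.7 and 21.0 TPM in TCF-1 cKO libraries before transplant. Post-transplant it was at 20.5, 5.19 and 7.45 TPM in WT and at 9.48, 7.07 and 9.48 TPM in TCF-1 cKO libraries. The genotypes overlapped at each stage, and in TCF-1 cKO cells every post-transplant library lay below every pre-transplant library, while the WT stages overlapped. The edgeR log2 differences were -0.41 and -0.20 between genotypes before and after transplant and -0.23 in WT and 0.73 in TCF-1 cKO cells between stages, none past the threshold, at adjusted p of 0.622, 0.810, 0.841 and 0.146. The TCF-1 cKO stage difference of Cd44 depended on the setting. It was called higher by DESeq2 (0.77), under the GC and length offset (0.68) and without TCF-1 cKO pre-transplant replicate 3 (0.79), and lower under library totals (-0.90), at adjusted p of 0.0505, 0.0894, 0.0746 and 0.0626. Cd44 has 9 listed transcripts, and ENSMUST00000111194 and ENSMUST00000099673 were the main ones. The first took 43.6 to 54.8% of the counts in WT pre-transplant, 20.9 to 75.9% in TCF-1 cKO pre-transplant, 47.3 to 88.0% in WT post-transplant and 67.0 to 78.3% in TCF-1 cKO post-transplant libraries, so the groups overlapped.

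Ly6c2 (ENSMUSG00000022584, chromosome 15, 75108158 to 75111970, minus strand), which encodes Ly6C on memory and effector CD8 T cells and on monocytes, had the highest mean TPM of the 8 genes in each group, although Ccr7 exceeded it in WT pre-transplant replicate 2. It was at 534, 224 and 451 TPM in WT and at 356, 408 and 315 TPM in TCF-1 cKO libraries before transplant. Post-transplant it was at 1157, 1214 and 868 TPM in WT and at 556, 683 and 583 TPM in TCF-1 cKO libraries, so that the post-transplant genotypes did not overlap and all post-transplant libraries lay above all pre-transplant ones. Ly6c2 rose 6.22-fold in WT (log2 fold change 2.64, SE 0.52, edgeR adjusted p = 0.00894) and 6.43-fold in TCF-1 cKO cells (2.69, SE 0.33, adjusted p = 0.000434), and all 17 alternatives called each. Relative to the counts of Cd8a and Cd8b1 in the same library, the log2 difference was 0.36 in WT and -1.06 in TCF-1 cKO cells. The direction in TCF-1 cKO cells therefore depended on the reference. The post-transplant genotype difference of -1.05 (SE 0.39, edgeR adjusted p = 0.125) did not pass, nor did the difference of -0.37 before transplant (SE 0.44, adjusted p = 0.639). Ly6c1 is a near-identical copy, so the split of reads between them is uncertain. The ratio of Ly6c2 to Ly6c1 TPM went from 10.2 to 13.6 in WT pre-transplant libraries to 227 to 438 in WT post-transplant libraries, and from 8.88 to 58.9 to 96.7 to 302 in TCF-1 cKO libraries (two-sided exact permutation p = 0.1 in each, the smallest that 3 against 3 libraries allow). Ly6c1 itself fell in WT cells between stages (log2 fold change -2.26, SE 0.69, edgeR adjusted p = 0.056).

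**Figure D3:**
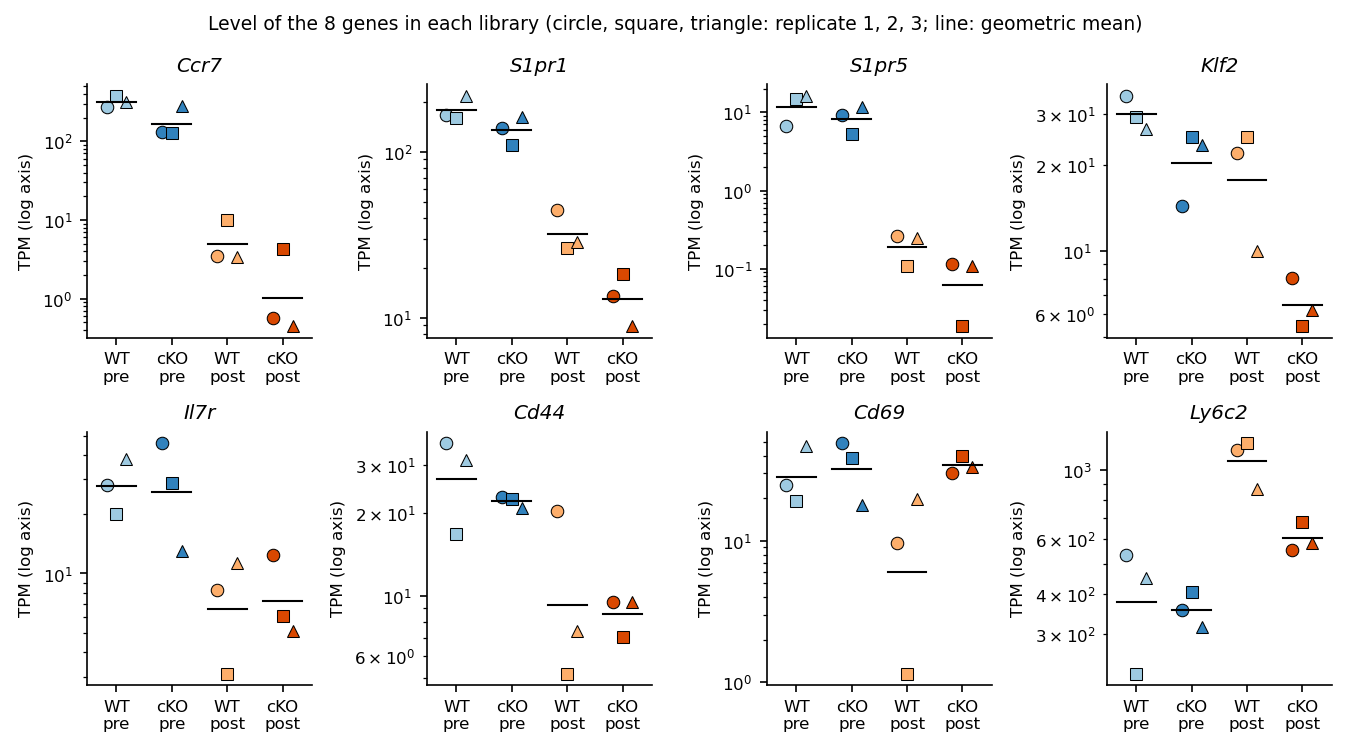
TPM of each of the 8 genes on a log y axis in the 12 libraries, grouped on the x axis by genotype and stage, with a symbol for each replicate and a line for the geometric mean of the group. Ccr7 falls from 126 to 375 TPM before transplant to 0.446 to 9.91 TPM post-transplant, Ly6c2 rises, and Cd69 spans 1.15 to 19.9 TPM among the WT post-transplant libraries.

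Read as TPM, more members were lower after transplant than in the scaled counts. In WT cells 5 members had post-transplant libraries wholly below the pre-transplant libraries and 1 wholly above, where 44.2% and 4.98% of all genes tested did so. In TCF-1 cKO cells 6 were wholly below and 1 wholly above, against 59.1% and 8.17% of genes. Scaled by library totals, the median log2 fold change over all genes tested was -1.25 in WT and -1.89 in TCF-1 cKO cells, compared with -0.30 and -0.29 on the TMM scale. Ccr7, S1pr5 and Ly6c2 kept their direction and calls under library totals, and Klf2 turned negative in both genotypes (-0.47 in WT and -1.32 in TCF-1 cKO cells). Between genotypes, TPM was wholly lower in TCF-1 cKO cells for Klf2 before transplant, where 7.9% of genes were, and for S1pr1, Klf2 and Ly6c2 post-transplant, where 16.5% were. It was wholly higher for 0 members before transplant, against 19.3% of genes, and for Cd69 post-transplant, against 22.1%. The B cell, NK cell and myeloid transcripts named above were lower post-transplant in the same libraries as Ccr7, S1pr1 and S1pr5, and their part in these falls was not tested. In bulk libraries fewer cells of a type and less RNA per cell cannot be told apart.

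Ratios within a library do not depend on scaling between libraries. They can still vary with the mix of cells, and pre-transplant libraries held more B cell, NK cell and myeloid transcripts. The part of that mix in these ratios was not tested. The ratio of Cd69 to S1pr1 TPM, the antagonist over the exit receptor, was 0.120 to 0.215 in WT and 0.110 to 0.350 in TCF-1 cKO libraries before transplant. Post-transplant it was 0.219, 0.0443 and 0.701 in WT and 2.25, 2.19 and 3.76 in TCF-1 cKO libraries, a log2 difference of 3.81 with no overlap. It also separated the stages in TCF-1 cKO cells (log2 difference 3.48) and differed by 0.27 between the WT stages (two-sided exact permutation p = 0.8). The change of the genotype difference between stages was 3.21 on the log2 scale (exact permutation p = 0.13, adjusted over 4 ratios 0.26). That test relabels genotype within each stage, and differences of the same sign, here 0.60 and 3.81, keep it from its smallest p. It cannot decide whether the ratio responds differently in the genotypes, and no such difference is shown. The ratio of Cd44 to Ccr7 TPM, a memory marker over a naive one, went from 0.0449 to 0.133 before transplant to 0.524 to 5.85 post-transplant in WT, and from 0.0761 to 0.180 to 1.67 to 20.8 in TCF-1 cKO libraries. The genotypes overlapped in it at both stages (exact permutation p = 0.3 at each). The ratio of S1pr5 to S1pr1 TPM went from 0.0393 to 0.0925 to 0.00455 to 0.00900 in WT and from 0.0475 to 0.0718 to 0.00156 to 0.0135 in TCF-1 cKO libraries, so it was lower in every post-transplant library. For the ratios whose groups did not overlap the exact permutation p was 0.1, the smallest possible, and 4 ratios were compared in 4 comparisons.

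**Figure D4:**
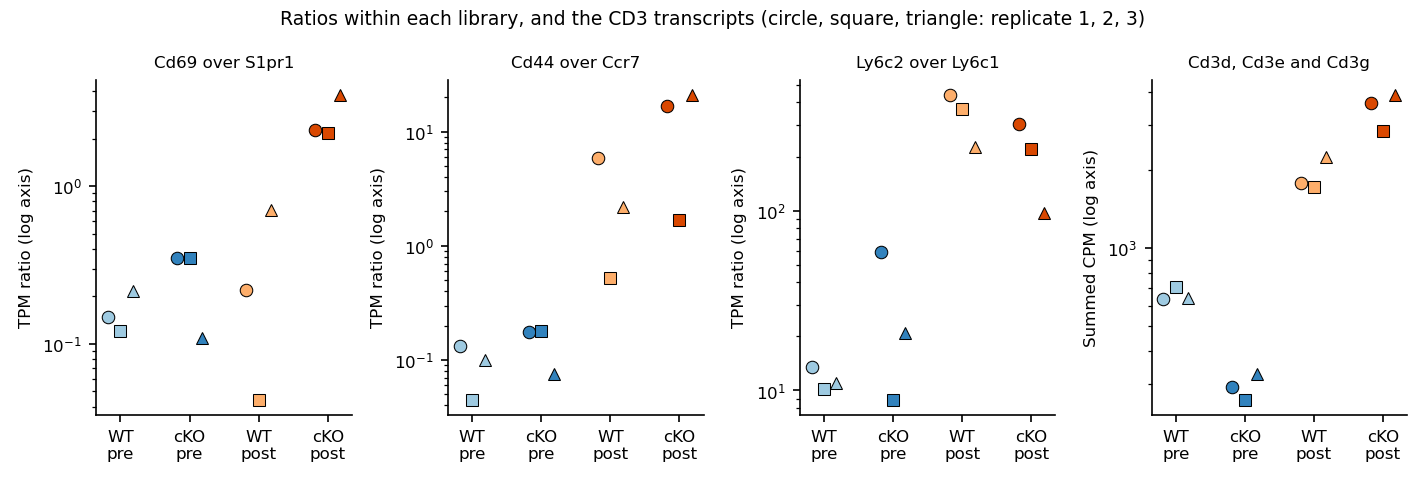
TPM ratios of 3 gene pairs and, in the last panel, the summed CPM of Cd3d, Cd3e and Cd3g, on log y axes for the 12 libraries grouped by genotype and stage, with a symbol for each replicate. The ratio of Cd69 to S1pr1 exceeds 2.18 only in the TCF-1 cKO post-transplant libraries, and the CD3 transcripts range from 260 to 326 CPM in TCF-1 cKO pre-transplant libraries to 2846 to 3898 CPM in TCF-1 cKO post-transplant libraries.

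The members were also set against the CD3 transcripts Cd3d, Cd3e and Cd3g, which encode the signaling chains of the T cell receptor. CD3 was at 637 to 708 CPM in WT and 260 to 326 CPM in TCF-1 cKO libraries before transplant, and at 1719 to 2250 and 2846 to 3898 CPM post-transplant. Its genes did not move together post-transplant. Cd3e was at 200 to 797 CPM in WT and 102 to 119 CPM in TCF-1 cKO libraries. Cd3d was at 774 to 941 and 1229 to 1474 CPM, and Cd3g at 148 to 1110 and 1513 to 2346 CPM. A sum of 7 T cell transcripts was at 5493 to 6781 CPM in WT and 5874 to 6119 CPM in TCF-1 cKO libraries post-transplant. Before transplant S1pr1, Klf2, Cd44 and Ly6c2 counts per CD3 count were wholly higher in TCF-1 cKO libraries, and so were those of 53.3% of genes tested, while 0 members and 0.32% of genes were wholly lower. Post-transplant S1pr1, S1pr5, Klf2 and Ly6c2 were wholly lower in TCF-1 cKO libraries, against 25.3% of genes, and 0 members were wholly higher, against 7.81%. Between stages 7 members in WT and 8 in TCF-1 cKO cells were wholly lower per CD3 count, against 70.8% and 92.7% of genes, and 0 were wholly higher, against 1.37% and 0.361%. Ly6c2 was the exception in WT cells, with a log2 difference per CD3 count of 0.22 (two-sided exact permutation p = 0.8). Each non-overlapping comparison gave the smallest exact permutation p of 0.1. For 4 members, S1pr1, S1pr5, Klf2 and Ly6c2, the genotype difference per CD3 count was lower post-transplant than before at an exact permutation p of 0.01 or less, against 12.7% of 21526 genes. That cut was the largest p among these 4 members and was not fixed beforehand. The null of this test is no genotype difference at either stage. Their changes of -2.92 to -2.67 lay near the median of -2.46 over all genes.

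The change of the genotype difference from before to post-transplant passed for 0 of the 8 members by the edgeR interaction test over all 12 libraries, where 0.00465% of 21526 genes were called, 0.00465% lower and 0% higher. At an unadjusted p under 0.05, 0 of the 8 passed, with Cd69 nearest at 0.056, and DESeq2 and voom with limma also called 0 members. A difference in one stage and not in the other is therefore not shown to be a difference between stages for Klf2 or S1pr1.

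Around the members, the other genes of lymph node entry and egress were read from a list of 20 genes that includes 5 of the members. In WT cells 3 rose and 6 fell between stages, where 9.7% and 10.3% of all genes tested were called higher and lower. The list median log2 fold change was -0.79. Without the library labelled WT post-transplant replicate 3 the split was 6 higher and 4 lower, without WT pre-transplant replicate 3 it was 1 and 3, and under library totals it was 2 and 9. Coro1a, an actin regulator needed for egress (2.86), S1pr4, a receptor of the same family (2.65), and the G protein subunit Gnai2 (1.52) rose, while Foxo1, a transcription factor that keeps naive homing genes on, fell by 2.77 on the log2 scale beside Ccr7 and S1pr5. The Gnai2 call lay at the threshold (edgeR adjusted p = 0.0999). In TCF-1 cKO cells 4 rose and 5 fell on the TMM scale, where 19.7% and 16.8% of all genes tested were called higher and lower. The list median was 0.04. The split was 1 higher and 15 lower under library totals and 4 and 3 without TCF-1 cKO post-transplant replicate 3. On the TMM scale Coro1a (2.63) and the G protein subunit Gnai3 (1.63) rose with Cd69, and Sgpl1, the lyase that breaks down sphingosine-1-phosphate, fell by 2.23 with Ccr7 and S1pr5. Between genotypes 0 of 20 passed before transplant in edgeR, with 3 lower at an unadjusted p under 0.05, while DESeq2 called 2 and the fit without TCF-1 cKO pre-transplant replicate 3 called 12, all lower. Post-transplant TCF-1 cKO cells had 11 of the 19 tested lower and 0 higher, against 15.4% and 2.51% of all genes tested. The list median was -1.81. The calls were led by Arhgef1 (-3.67), Rac2 (-3.78) and Gnai2 (-3.04), signaling proteins of cell migration, at an edgeR adjusted p of 0.0448 each. With the GC and length offset these 3 differences were -1.10, -2.89 and -1.26, at edgeR adjusted p of 0.117, 0.0903 and 0.103, and 5 list genes were called. Leaving out any 1 library lost all 11 calls, other than the library labelled WT post-transplant replicate 3, without which 11 were lower and 1 higher.

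Of 14 genes around the IL-7 receptor, Il7r included, 2 rose and 3 fell in WT cells between stages (list median -0.04), and 2 rose and 2 fell in TCF-1 cKO cells (0.13), on the TMM scale. Of all genes tested, 9.7% were called higher and 10.3% lower in WT, and 19.7% and 16.8% in TCF-1 cKO cells. Under library totals 0 were called higher and 5 lower in WT and 0 higher and 10 lower in TCF-1 cKO cells. Without the library labelled WT post-transplant replicate 3 the WT split was 4 higher and 4 lower, while without WT post-transplant replicate 1 it was 0 and 2. In TCF-1 cKO cells it was 4 and 2 without pre-transplant replicate 3. On the TMM scale in WT cells Cish (2.31), a feedback inhibitor, and Jak3 (2.32), the kinase of the common gamma chain, rose, and Foxp1, a repressor of Il7r (-3.92), Foxo1 (-2.77) and the survival gene Bcl2 (-2.39) fell. In TCF-1 cKO cells Gabpa (2.08) and Gfi1 (2.67), transcription factors that act on Il7r, rose, and Foxp1 (-3.15) and Bcl2 (-1.38) fell. Post-transplant TCF-1 cKO cells had 6 of 14 lower and 0 higher (list median -0.48), against 15.4% and 2.51% of all genes tested. The calls were led by Stat5b (-3.44), Cish (-3.72) and Socs1 (-3.77) at an edgeR adjusted p of 0.0448 each. Before transplant 0 of 14 passed, with 3 lower at an unadjusted edgeR p under 0.05 and 1 called by DESeq2. Without TCF-1 cKO pre-transplant replicate 3, 5 were called lower. Post-transplant the calls were 0 without any 1 library except the library labelled WT post-transplant replicate 3, without which 6 were lower, and the offset left 3. Il7r itself was called in none of these comparisons on the TMM scale.

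Of 20 surface markers of naive, memory and activated cells, 3 of them members, 9 rose and 2 fell in WT cells between stages (list median 1.36) and 12 rose and 1 fell in TCF-1 cKO cells (1.79) on the TMM scale. The shares of all genes tested were 9.7% higher and 10.3% lower in WT, and 19.7% and 16.8% in TCF-1 cKO cells. Under library totals 8 were higher and 3 lower in WT and 7 higher and 4 lower in TCF-1 cKO cells, and without WT pre-transplant replicate 3 the WT split was 6 and 1. The activation receptor Tnfrsf9, which encodes 4-1BB, rose by 6.14 and 6.88 on the log2 scale, and Klrg1, a marker of terminal effector cells, by 5.41 and 6.68. Il2ra, the IL-2 receptor alpha chain, rose by 4.99 in TCF-1 cKO cells. Cd38 fell by 2.61 and 1.54. Post-transplant TCF-1 cKO cells had 4 of 20 lower and 0 higher (list median 0.23), a share near the 15.4% of all genes called lower. These were led by Cxcr3, a chemokine receptor of effector cells (-3.86), the costimulatory receptor Tnfrsf4 (-3.64) and Il2rb, which encodes CD122 (-3.53), and the same 5 libraries each took the calls to 0 when left out. Without the library labelled WT post-transplant replicate 3, 7 were lower and 4 higher. Before transplant 0 passed in edgeR, with 6 lower at an unadjusted p under 0.05 and 1 called by DESeq2. Without TCF-1 cKO pre-transplant replicate 3, 5 were lower. The medians over all genes tested stand above for each comparison. For the change of the genotype difference between stages edgeR called 0 genes in each of the 3 lists, with 6, 2 and 5 at an unadjusted p under 0.05, and DESeq2 called 3, 2 and 4.

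Genes with the pattern most like each member were taken over the 12 libraries as the protein-coding genes with the smallest root mean square difference of centered log2 normalized CPM, out of 15143 genes. For Ccr7 they were Cd81, Pld4 and Hhex, at 0.63 to 0.82 against a median of 3.01 over all genes. For S1pr5 they were Cd83, Kmt2d and Sema4b, at 0.76 to 0.78 against 2.69. For Klf2 they were Pdlim1, Zfp787 and Mrps15, at 0.21 to 0.27 against 1.51. Il7r was followed most closely by Znrf2, Atp2c1 and Sppl2a (0.33 to 0.37 against 1.42), Cd44 by Rsu1, Baz1a and Pon2 (0.22 to 0.27 against 1.34), Cd69 by Pyroxd1, Anxa1 and Tubgcp5 (0.35 to 0.39 against 1.79) and Ly6c2 by Trappc4, Yipf1 and Eno3 (0.29 to 0.34 against 1.96). No member was among the 3 nearest of another.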

How the data were processed

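RNA-seq libraries of sorted mouse CD8 T cells were read from the authors' deposited kallisto 0.46.2 tables, which give an estimated count and a TPM for each of 117497 transcripts. The labels name build mm9. Transcripts were joined without version to GENCODE M21 (GRCm38), which matched 116374 in 35855 genes; coordinates are from that annotation. The members and lists were chosen with earlier results of these data known. Counts were summed by gene and rounded. For each comparison its 6 libraries were fitted in edgeR 4.0.16 (R 4.3.3; TMM scaling, filterByExpr, quasi-likelihood test, adjusted p under 0.1), and the interaction over 12 libraries. Ratios within a library (0.5 counts or 0.01 TPM added) were compared by two-sided exact permutation tests. The study fitted voom and limma; limma 3.58.1 and DESeq2 1.42.0 were alternatives. The edgeR fits were tested on simulated counts. Total gene counts of 4499032 to 32551712 set the precision, and 3 counts equal 0.0922 to 0.667 CPM. No 2 libraries of the same group agreed within sampling noise. Libraries of different groups were not compared in this way. Named genes were all members, the 3 list genes per direction with the smallest p past the threshold, and the 3 nearest in pattern, which for S1pr1 are not reported here.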

Additional observations from a re-analysis of the deposited data

Results flagged for a closer look

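Relative to CD3 transcripts, 4 members were flagged because their genotype difference was lower post-transplant than before transplant. The difference is TCF-1 cKO minus WT, in log2 of counts per CD3 count. The two-sided exact permutation test, chosen after seeing the data, used 400 relabelings of genotype within each stage. Its null is no genotype difference at either stage, so a small p does not by itself show a change between stages. It reaches its smallest p only where the differences at both stages have opposite signs. The change was -2.83 for S1pr1, -2.80 for Klf2 and -2.67 for Ly6c2 (exact p = 0.005, the smallest possible, and 0.0133 adjusted over 8 members), and -2.92 for S1pr5 (exact p = 0.01, adjusted 0.02). The difference went from 0.90 to -1.93 for S1pr1, from 0.74 to -2.06 for Klf2, from 1.25 to -1.42 for Ly6c2 and from 0.82 to -2.11 for S1pr5. Relative to Cd8a and Cd8b1 counts the differences were smaller at both stages. They went from 0.59 to -0.99 for S1pr1, from 0.43 to -1.12 for Klf2, from 0.94 to -0.48 for Ly6c2 and from 0.51 to -1.16 for S1pr5. With these counts the genotypes overlapped for S1pr5 at both stages and for S1pr1 and Klf2 before transplant. The change relative to CD8 was not tested. The median change over all 21526 genes was -2.46, so the size of the change in these 4 members lay near that of the rest. A negative change with an exact permutation p of 0.01 or less was found for 12.7% of all genes, against 4 of the 8 members. That cut was the largest p among these 4 members, so the shares do not compare them at a cut fixed beforehand. The CD3 sum of TCF-1 cKO libraries was 260 to 326 CPM before transplant and 2846 to 3898 CPM post-transplant, and that of WT libraries 637 to 708 and 1719 to 2250 CPM. Post-transplant, Cd3d and Cd3g CPM were wholly higher and Cd3e CPM wholly lower in TCF-1 cKO than in WT libraries. On the TMM scale the edgeR interaction test called 0 members.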

How the results depend on the processing

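The fall of Ccr7 and S1pr5 and the rise of Ly6c2 after transplant were called under every one of 17 alternatives in each genotype. Within libraries the direction of Ly6c2 differed. In TCF-1 cKO cells it fell without overlap per CD3 count (-2.45) and per Cd8a and Cd8b1 count (-1.06). Per CD3 count 92.7% of genes tested were wholly lower there. In WT cells these differences were 0.22 and 0.36 (two-sided exact permutation p = 0.8 and 0.4). The number of members called post-transplant between genotypes was 2 and depended on the setting: 4 with DESeq2, 0 with library totals, 0 at an adjusted p under 0.05, 1 under the GC and length offset, 1 in 1 fit over 12 libraries, and 0 to 4 when 1 library was left out. With the replicate number as a block it was 1 (Ccr7, -2.46, edgeR adjusted p = 0.0810), and 0 with block and offset together; in the other comparisons the block alone removed 1 call, S1pr1 in WT cells, and with the offset also S1pr1 in TCF-1 cKO cells. Same-numbered libraries did not deviate together in any comparison (correlations from -0.094 to 0.085), although between the post-transplant genotypes every library matched its own number best, a hint from the data and not from the design. Leaving out 1 library gave 0 to 2 members called before transplant (main 0) and 0 to 1 for the change between stages (main 0). Over all genes the calls ran from 0 to 2739 (main 7) before transplant, from 0 to 5299 (main 2868) post-transplant, from 1579 to 4853 (main 3362) in WT, from 5157 to 12268 (main 6774) in TCF-1 cKO cells and from 0 to 2093 (main 1) for the change. Under library totals the split of calls was 717 higher and 4136 lower in WT, against 1628 and 1734, and 1660 and 10608 in TCF-1 cKO cells, against 3660 and 3114.

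Of the differences called at first, the sign turned for Klf2 alone (post-transplant between genotypes), which was 0.50 with the GC and length offset and 0.51 with the block added. Under library totals the differences were 0.072 (Il7r), 0.38 (Cd69) and 0.000275 (Ly6c2) before transplant, 0.22 (Il7r) and 0.20 (Cd44) post-transplant, -0.47 (Klf2) in WT and -1.32 (Klf2), -1.38 (Il7r) and -0.90 (Cd44) in TCF-1 cKO cells. In 1 fit over 12 libraries Il7r was 0.14 and Cd44 0.093 post-transplant, and with a CPM above 1 in 3 libraries Cd69 was 0.0060 before transplant. With the offset Cd44 was 0.54 in WT, and with block and offset it was 0.60 and Il7r 0.040. Leaving out 1 library moved Cd69 from -0.42 to 0.20 before transplant, Il7r from -0.70 to 0.13 and Cd44 from -0.51 to 0.17 post-transplant, Cd44 from -0.55 to 0.25 and Cd69 from -1.58 to 0.077 in WT, and Il7r from -0.22 to 0.84 in TCF-1 cKO cells. Relative to Cd8a and Cd8b1 instead of CD3, the post-transplant genotype difference was 0.43 for Il7r and 0.45 for Cd44. Relative to CD3, Ly6c2 ran from -0.17 to 0.47 in WT when 1 library was left out, an alternative added after seeing the data. So did S1pr5 over S1pr1, from -0.44 to 0.18 before and -0.73 to 0.82 post-transplant between genotypes, and Cd69 over S1pr1 in WT, from -0.67 to 1.32; in estimated counts the last was -0.23. What caused the changes of sign, those under the offset included, was not tested. Depth limited S1pr5, at 1 to 23 counts post-transplant.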
